A study of Drosophila melanogaster with 12 samples.

Results

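Male reproductive transcripts appeared in 3 of the 6 young libraries, although all 6 are labelled as whole bodies of female flies. The 3 libraries were wild type replicates 1 and 2 and Ptth mutant replicate 1. The other 3 young libraries were wild type replicate 3 and mutant replicates 2 and 3. The 3 libraries were chosen by a measured value, the summed level of all genes whose symbol is Acp or Mst followed by a digit, so every difference between them and the other 3 is a description and none was tested. The series holds 12 libraries in all, 3 for each combination of genotype (wild type or Ptth mutant) and age (young or old). Poly(A) RNA was sequenced, and each library pooled about 15 females. The labels name the wild type wOB and the mutant ptth120BC2, and the design text puts the young flies at 1 week and the old flies at 5 weeks. What lesion the mutant allele carries is not described in the labels. The prothoracicotropic hormone, encoded by Ptth, is released by brain neurons and starts ecdysteroid production in the larva.

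The male reproductive tract of Drosophila has 3 main sources of RNA. The testis makes sperm, and its germ cells transcribe many genes that are silent in other tissues, often duplicates of genes that every cell uses. The accessory gland secretes the seminal proteins, of which Sex Peptide changes egg laying and receptivity in mated females. The ejaculatory duct and bulb add further proteins, among them those of the mating plug. Males also carry a Y chromosome, whose fertility genes are transcribed in spermatocytes, and they coat the X chromosome with a protein complex that contains the roX RNAs.

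Values are normalised counts, that is reads per gene divided by 1 size factor per library, given in the order wild type replicates 1 and 2 and mutant replicate 1, then wild type replicate 3 and mutant replicates 2 and 3. The young libraries held 18324396 to 28206866 reads and the old ones 16448805 to 27166788. A log2 difference is the mean log2(normalised count + 1) of the first 3 libraries minus that of the other 3, and it understates the change of low genes. A gene was counted as higher or lower when this difference was over 1, a 2-fold change, and the 3 libraries did not overlap with the other 3. Genes were considered only where 3 or more of the 6 young libraries reached 10 normalised counts. Ptth itself had 35.4, 39.9 and 28.3 in the first 3 libraries and 25.5, 18.5 and 22.4 in the other 3.

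The sum that chose the libraries covered 40 genes. Taken to the letter, it was 8008, 23863 and 11407 in the first 3 libraries and 990.3, 1068 and 1119 in the other 3, so 5 of the 6 passed the minimum of 1000. Most of the sum in the last 3 came from 1 gene. Mst85C had 577.5 to 786 normalised counts in the first 3 libraries and 861 to 945 in the other 3, and in old libraries it lay between 707 and 945, so it was not restricted to the libraries with the other transcripts. Without Mst85C the sums were 7388, 23286 and 10621, against 129.7, 148 and 174. In old libraries this sum reached at most 129.2. The split therefore follows the 39 remaining genes, of which 31 were higher in each of the 3 libraries than in any of the other 3 and 6 had at most 3 normalised counts in all 12 libraries. Of all 17714 genes in the table, 21.3% were higher without overlap. As the sum of the 39 genes chose the libraries, the count of 31 is a description. The symbols do not all mark male tissue, since Acp1 and Acp65Aa are cuticle proteins, and Acp65Aa had 19.5, 36.7 and 89.9 against 45.2, 80.9 and 91.5.

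**Figure D1:**
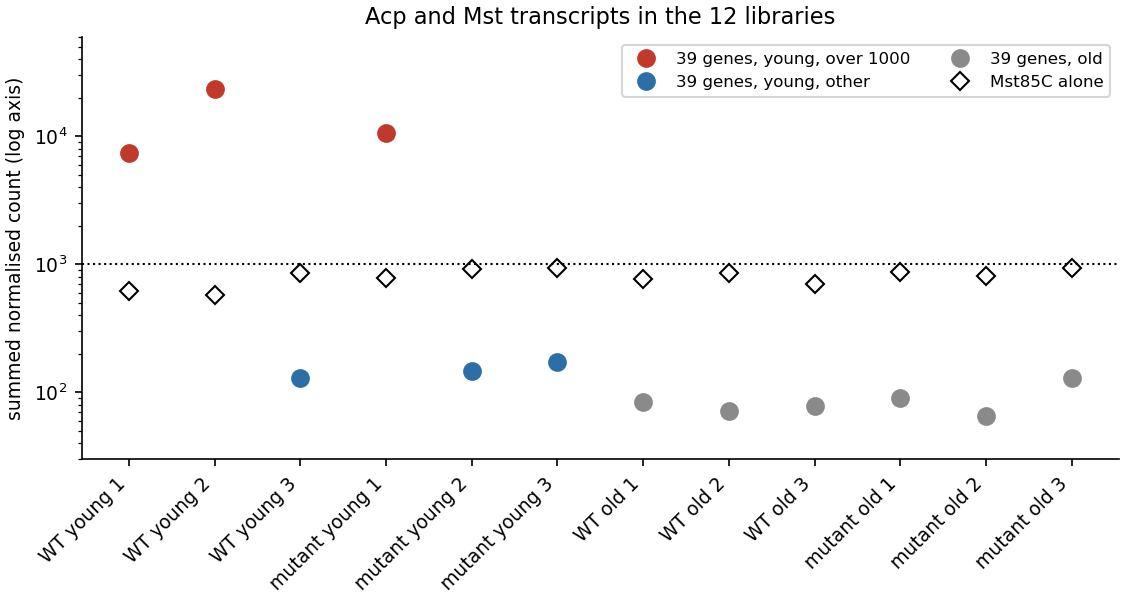
Summed normalised counts (log axis) of the 39 Acp and Mst genes other than Mst85C in each of the 12 libraries, as filled points, and of Mst85C alone, as open diamonds, with a dotted line at 1000. Wild type young replicates 1 and 2 and mutant young replicate 1 lie between 7388 and 23286 and the other 9 libraries at or below 174, while Mst85C lies between 577.5 and 945 in all 12.

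The 3 genes given as markers of the male sources were examined first. Acp26Aa, an accessory gland protein that stimulates ovulation in the mated female, is encoded on arm 2L at 5892883 to 5893896 (Release 6 assembly). It had 316, 929 and 438 normalised counts in the 3 libraries and 0, 1.76 and 2.03 in the other 3. Old libraries held at most 2.42 of it. Mst87F, a sperm tail protein gene of chromosome 3R, had 189, 678 and 141, against 3.93, 0 and 1.02. Both genes were thus nearly absent from the other 9 libraries.

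The third marker, lncRNA:roX1 on the X chromosome, 3857230 to 3862697, behaved otherwise. It had 811.5, 1968 and 502 normalised counts in the 3 libraries and 148, 36.1 and 31.5 in the other 3. The old libraries held 112 to 179, so the level in wild type young replicate 3 lay in the range of the old libraries and mutant young replicates 2 and 3 lay below it. The shorter lncRNA:roX2 had 15.9, 21.5 and 9.77 against 5.89, 1.76 and 2.03. None of the genes for protein members of the complex, msl-1, msl-2, msl-3, mle and mof, was counted as higher. The level of msl-2, the subunit that is made in males, was 200.1, 249.6 and 179.8 against 162, 146 and 158, higher in all 3 libraries without overlap but by 0.42 on the log2 scale, under 2-fold. Both msl-1 and msl-3 were lower in all 3 libraries, also by less than 2-fold. Of all genes considered, 24.1% were higher and 17.0% lower without overlap, whatever the size of the difference. Of the 6 members of this list that were considered, 1 was higher, beside 10.8% of all genes considered. The median log2 difference of the list was -0.12.

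Because the 3 libraries fall in both genotypes, male transcripts entered the group values unevenly. Mean Acp26Aa in young wild type was 415 ± 472 (SD, n = 3) and in young mutants 147 ± 252 (SD, n = 3). Ebp, the most abundant of the added transcripts, had 6511 ± 7737 (SD, n = 3) and 2185 ± 3771 (SD, n = 3). In each of these cases the SD was larger than the mean. The split holds 2 wild type libraries and 1 mutant library on the high side, and 1 and 2 on the other. A gene that differs between the genotypes and a gene that differs with male transcripts therefore cannot be told apart in the pooled difference alone. Differences within each genotype are given for some genes and lists.

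Of 11215 genes considered, 1209 (10.8%) were higher in the 3 libraries and 1 (0.00892%) was lower. The difference exceeded 3 on the log2 scale for 938 of the higher genes and 5 for 481. The median log2 difference over all genes considered was 0.06. Among the 1209, 987 had under 10 normalised counts in each of the other 3 libraries. Those 987 passed the filter only through the libraries in which they were high, so they had to differ, and their number is no independent support. Among the 10220 genes with at least 10 in 1 of the other 3 libraries, 222 (2.17%) were higher.

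Accessory gland transcripts were present as a nearly complete set. Of 48 genes of secreted accessory gland proteins 40 passed the filter, and these 40 were higher. As 38 of them had under 10 normalised counts in each of the other 3 libraries, they had to differ, and the count is a description beside 10.8% of all genes. Including genes under the filter, 47 of the 48 were higher without overlap, which held for 3769 (21.3%) of all 17714 genes in the table. The remaining gene, Acp95EF, was at 0 in all 12 libraries. The median log2 difference was 6.38, against 0.06 over all genes. The summed level of the list was 8441, 28206 and 13588 normalised counts, against 63.9, 55.4 and 69.1. Old libraries held 53.4 to 102.5. Of the 48 genes 20 carry symbols of the kind that chose the libraries. The other 28, SP and the Sfp genes, were not part of the sum, and the median of those considered was 5.36.

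Acp36DE, which is needed for the storage of sperm in the female, was the most abundant member, with 1680.4, 4959 and 2401 normalised counts against 4.91, 6.16 and 5.08. Sfp87B had 1024, 4277 and 1481, against 3.93, 1.76 and 2.03. Sfp60F had 639, 2679 and 1093, against 0, 0.879 and 4.06. No value of these genes in the first set of libraries came near the other. Mst57Da and Mst57Db carry an Mst symbol but encode peptides of the accessory gland. Mst57Db had 696, 2200 and 1094 against 2.95, 2.64 and 1.02, and Mst57Da had 628, 2012 and 903 against 0.982, 1.76 and 1.02. Acp53C14a was the member with the highest level in the other libraries, at 421, 1161 and 675 against 10.8, 6.16 and 22.4.

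Sex Peptide itself, the gene SP on chromosome 3L, 13301635 to 13301922, had 119.6, 339 and 179 normalised counts in the 3 libraries. It was 0 in wild type young replicate 3 and in mutant young replicates 2 and 3. Against the level that 3 reads per library allow, averaged over the 3 libraries, SP was at least 73.8-fold higher. The old libraries held at most 2.79 of it. Sex Peptide binds sperm with the help of further seminal proteins, which form the sex peptide network.

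Of the 11 genes of that network all were considered and 8 were higher, beside 10.8% of all genes, with a median log2 difference of 3.40. Apart from lectin-46Ca and lectin-46Cb, the higher genes had under 10 normalised counts in each of the other 3 libraries, so they had to differ. The protease homologue genes aqrs and CG9997 and the secretory protein gene CG17575 stood at nearly 0 in the other libraries. The gene aqrs had 63.5, 234 and 106, against 0, 0 and 1.02. Both C-type lectins of the network had a base level. The gene lectin-46Ca had 177, 391.6 and 134 against 25.5, 30.8 and 27.4, and lectin-46Cb had 139, 341 and 136 against 50.1, 43.1 and 35.6. The 3 genes that were not counted, hdly, Esp and frma, encode proteins that act in the female. They had log2 differences of 0.39, 0.30 and 0.33.

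**Figure D2:**
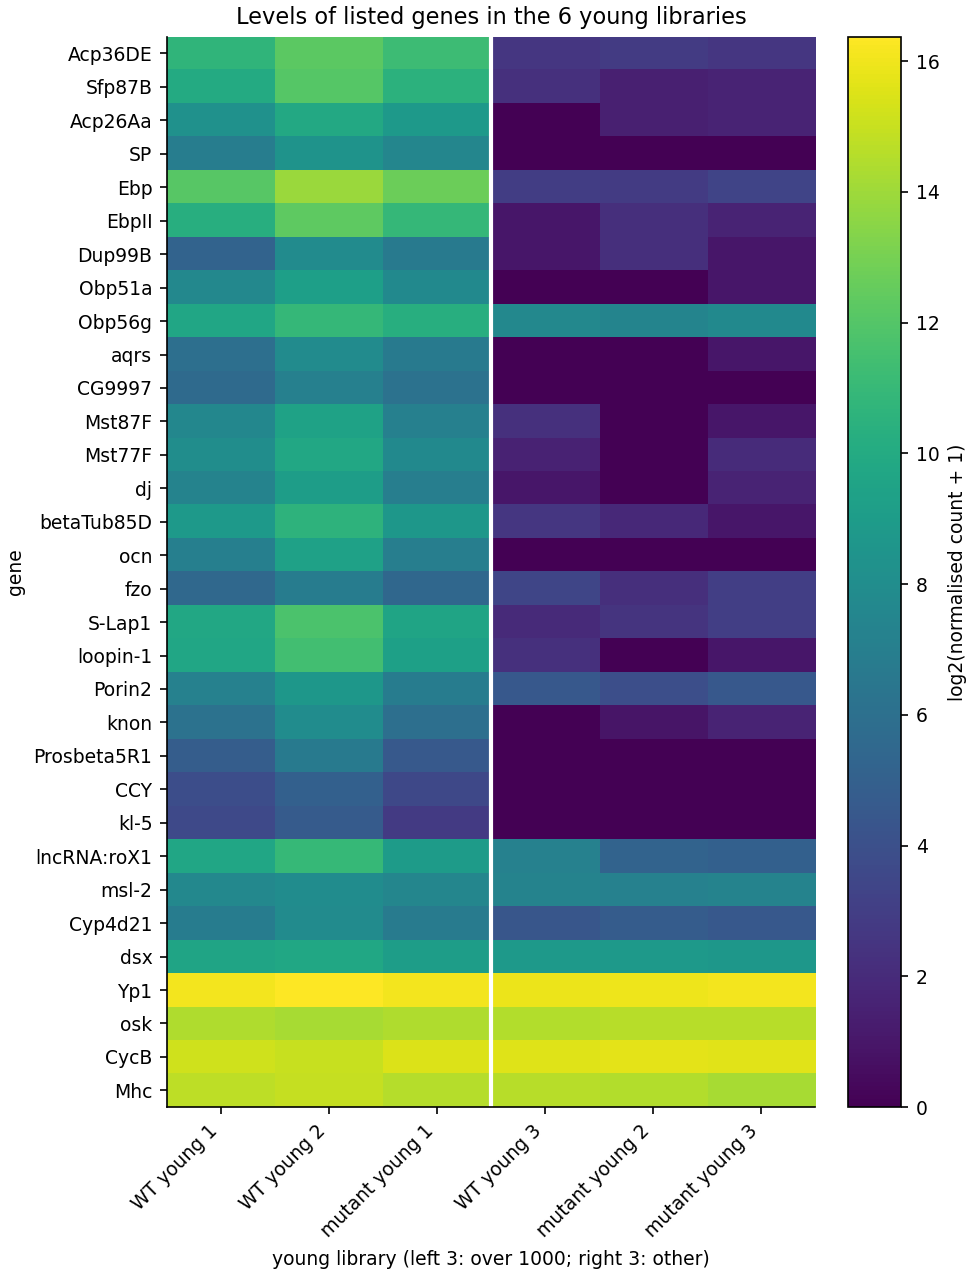
Level of 32 listed genes (rows) in the 6 young libraries (columns), as log2(normalised count + 1), with the 3 libraries over 1000 left of the white line and the other 3 right of it. SP is at 119.6, 339 and 179 on the left and at 0 on the right, while Yp1, osk, CycB and Mhc have similar colours in all 6 columns.

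Transcripts of the ejaculatory duct and bulb included the single largest addition. Of 6 such genes 4 were higher, beside 10.8% of all genes, and the median log2 difference was 3.50. As Ebp, EbpII and Dup99B had under 10 normalised counts in each of the other 3 libraries, they had to differ. Ebp, a mating plug protein made in the bulb, lies on chromosome 2R, 25175126 to 25176715, and had 4459, 15068 and 6539 normalised counts against 6.88, 6.16 and 9.15. Its neighbour EbpII had 1251, 5152 and 1892, against 0.982, 3.52 and 2.03. Dup99B, a duct peptide related to Sex Peptide, had 36.6, 234 and 108, against 0.982, 3.52 and 1.02. These 3 genes were nearly silent without the male transcripts.

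The other 3 genes of the duct and bulb had high levels in every library. EbpIII had 11489, 15868 and 10854 against 8807, 8359 and 9393, and Est-6, a seminal esterase that also circulates in the haemolymph, had 3761, 6893 and 4014 against 2561, 2536 and 2853. Neither reached a 2-fold difference, although their libraries did not overlap. Gld, a glucose dehydrogenase, had 316, 510 and 345 against 148, 103 and 91.5 and was counted as higher. The 4 odorant-binding proteins counted among 5 of the male tract were Obp56g, Obp51a, Obp56f and Obp22a, beside 10.8% of all genes. Obp51a, Obp56f and Obp22a had under 10 normalised counts in each of the other 3 libraries, so they had to differ. Obp56g had 814, 1910 and 1234 against 200.4, 169 and 219.5.

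Testis transcripts were present too. Of 20 measured genes for sperm structure and chromatin 18 passed the filter and 17 were higher, beside 10.8% of all genes. The median log2 difference of the 18 was 6.17, against 0.06 over all genes. Of the 17, 11 were part of the sum that chose the libraries and 15 passed the filter only through them, so the count and the median are a description. The 6 that were not part of the sum had a median of 5.53. The exception was Mst85C, described above, which was lower in all 3 libraries by 0.47 on the log2 scale and was not counted. Mst98Ca had 338, 1231 and 275 against 0, 0 and 1.02. Mst77F, a linker-histone-like protein of the sperm nucleus, had 265, 896 and 213 against 1.96, 0 and 3.05. The protamine gene ProtB had 48.8, 176 and 44.0 and was 0 in each of the other 3 libraries. Its pair ProtA had 19.5, 136 and 25.4 against 0 in the other 3, and since both are near-identical copies the counting could have split their reads.

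All 8 sperm leucyl aminopeptidases, abundant proteins of the sperm, were higher, with a median log2 difference of 8.86, the highest of the lists. As all 8 had under 10 normalised counts in each of the other 3 libraries, they had to differ. The count is a description beside 10.8% of all genes. Their sum was 4272, 15495 and 3619 normalised counts against 13.8, 12.3 and 12.2. S-Lap1 had 913, 3410 and 768 against 2.95, 4.40 and 7.11. The member loopin-1 had 824, 2776 and 632 against 3.93, 0 and 1.02. As with the accessory gland, wild type replicate 2 was highest, but here mutant replicate 1 lay below wild type replicate 1.

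Genes of the spermatocyte were less uniform. Of 14 considered 5 were higher, beside 10.8% of all genes, with a median log2 difference of 0.67. This median was 0.99 within wild type and 0.37 within mutants. The 5 had under 10 normalised counts in each of the other 3 libraries, so they had to differ. The testis beta-tubulin betaTub85D had 466, 1534 and 398 against 4.91, 2.64 and 1.02, and ocn had 134, 671 and 130.0 against 0 in all 3. The mitofusin fzo, which fuses the mitochondria of the developing sperm, had 45.2, 116 and 44.0 against 9.82, 3.52 and 7.11. Other members are also expressed in the female. The meiotic phosphatase gene twe had 1699.9, 1481 and 2289 against 2329, 2705 and 2647, and bol, a meiotic RNA-binding protein gene, had 1704, 2318 and 1397 against 1168, 1207 and 1168. Thus twe was lower and bol higher in each of the 3 libraries, both by less than 2-fold.

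Duplicates of housekeeping genes that are used in the testis followed the sperm genes. Of 10 testis proteasome subunits considered 9 were higher, with a median of 4.56. Of 15 testis mitochondrial proteins 14 were higher, with a median of 3.44, and 11 of them within both genotypes. The 9 proteasome genes and most of the 14 had under 10 normalised counts in each of the other 3 libraries. These had to differ, and both counts are a description beside 10.8% of all genes. Prosbeta5R1 had 26.9, 107 and 22.5 and was 0 in the other 3 libraries. The mitochondrial porin Porin2 had 148, 409 and 114 against 21.6, 14.1 and 21.3. A member of the chaperonin family gives the same contrast within 1 family, chosen after its values were seen. Hsp60B had 216, 771 and 163 against 0, 0.879 and 1.02, Hsp60C had 351, 1235 and 269 against 1.96, 0.879 and 2.03, and the general Hsp60A had 14657, 13869 and 14043 against 14853, 13921 and 14369.

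Of 87 ribosomal protein genes, also looked at after the values were seen, 3 were higher, fewer than the 10.8% of all genes would give, and the median log2 difference was -0.01. The 3 were RpL10Aa, with 25.6, 79.0 and 22.5 against 0 in the other 3, RpL22-like, with 10.98, 67.8 and 19.5 against 0, and RpS19b, with 21.97, 51.0 and 30.3 against 8.84, 18.5 and 16.3. RpL10Aa and RpL22-like had under 10 normalised counts in each of the other 3 libraries, so they had to differ. RpS19b differed by 1.81 on the log2 scale within wild type and by 0.77, under 2-fold, within mutants. Both tektins, proteins of the sperm axoneme, were higher, but with under 10 normalised counts in each of the other 3 libraries they had to differ. Tektin-A had 67.1, 191 and 54.7 against 0.982, 0 and 0, and Tektin-C had 50.0, 133 and 36.2 against 1.96, 4.40 and 9.15.

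The Y chromosome was represented by few reads. Of its 12 listed genes 9 were higher without overlap, beside 21.3% of all genes in the table, and only CCY passed the filter. CCY had 13.4, 31.9 and 10.7 normalised counts and was 0 in the other 3 libraries, at least 6.49-fold higher than the level that 3 reads allow. The axonemal dynein gene kl-5 had 10.98, 25.5 and 5.86 against 0. The 12 genes summed to 79.3, 174 and 41.0 against 1.96, 3.52 and 3.05. On the small chromosome 4 a single gene was higher. It was JYalpha, a sodium pump subunit that is needed for male fertility, and it was named after its values were seen.

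Genes of sex determination and sex-biased soma did not stand out as a list. Of the 10 considered 1 was higher, a share near the 10.8% of all genes. Cyp4d21, a cytochrome P450 of the male head, had 114.7, 234 and 113 against 19.6, 26.4 and 21.3 and was the 1 gene counted. The fat body gene to, which is enriched in males, had 576, 595 and 526 against 363, 453 and 442. For dsx, whose sex-specific forms are not separated by gene counts, the values were 760, 864 and 548 against 443, 434 and 403. Neither dsx nor to reached 2-fold, although the libraries did not overlap. Sxl, the switch gene of the female state, had 4300.4, 3776 and 3852 against 3984, 4302 and 4216, and these ranges overlapped.

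**Figure D3:**
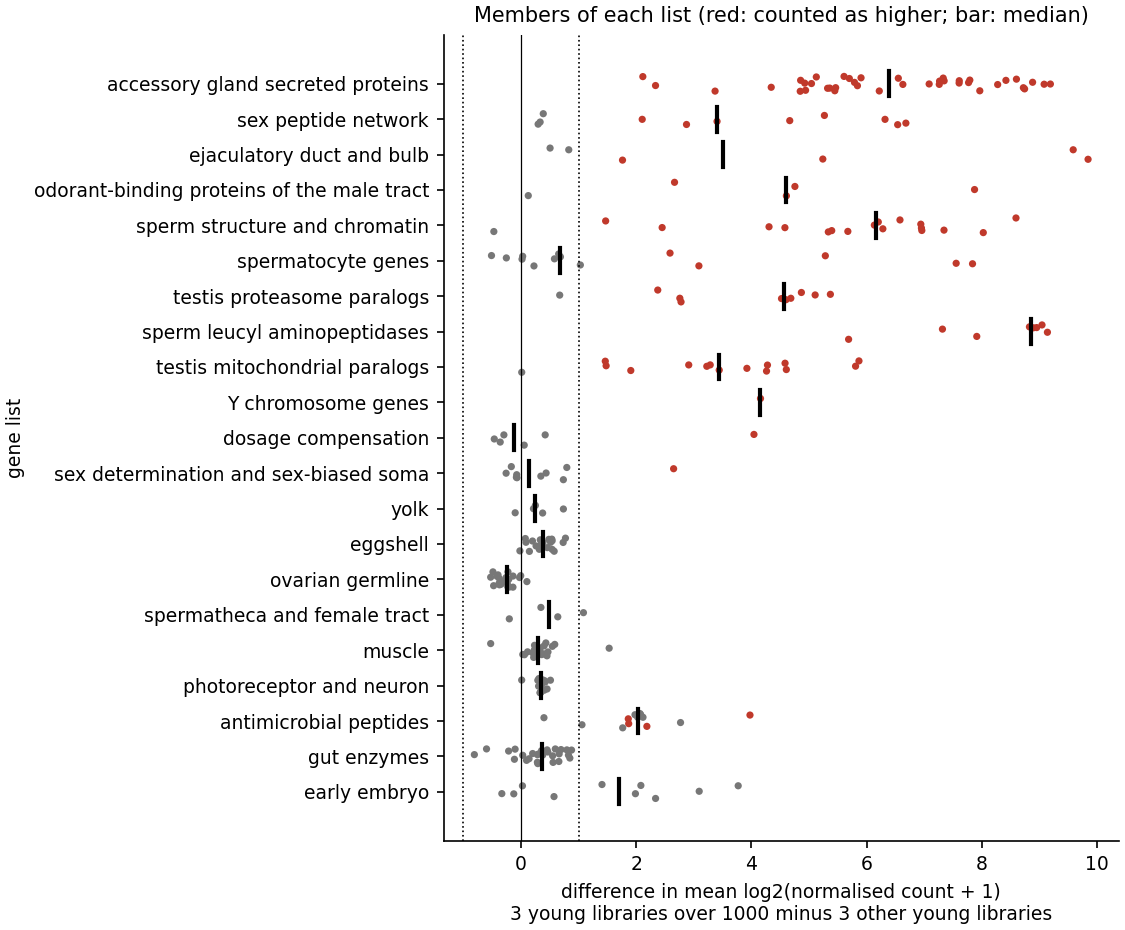
Log2 difference (3 libraries over 1000 minus 3 other young libraries, horizontal axis) of each considered member of the 21 gene lists, 1 point a gene, red where the gene was counted as higher, with a bar at the median and dotted lines at a 2-fold change. The 8 sperm leucyl aminopeptidases have the highest median, 8.86, and the yolk, eggshell, ovarian germline and gut lists hold no red point.

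Female tissue was present in all 6 libraries. Yolk protein transcripts are made in the female fat body and ovary, and Yp1 had 70622, 84801 and 70247 normalised counts against 59693, 64933 and 69078. None of 5 yolk genes, 20 eggshell genes, 22 ovarian germline genes and 4 spermatheca genes was counted as higher or lower. The yolk and eggshell medians were 0.25 and 0.38, and that of the ovarian germline was -0.25. Within wild type these medians were 0.46, 0.39 and -0.27, and within mutants 0.07, 0.14 and -0.15. In the germline list 21 of 22 members had a negative difference, and 12 were lower in all 3 libraries without overlap. Of all 11215 genes considered, 1906 (17.0%) were lower without overlap, whatever the size of the difference. CycB, the cyclin stored in the egg, had 38139.8, 32574 and 46476 against 48562, 52788 and 51549.9. The level of osk, the organiser of the germ plasm, was 21901, 18968 and 22151 against 22489, 25044 and 24675. In bulk RNA, fewer cells of a type and less RNA per cell cannot be told apart.

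Somatic lists lay slightly above 0. Of 24 muscle genes 23 had a positive difference, with a median of 0.30, and none was counted. Of 17 photoreceptor and neuron genes all had a positive difference, with a median of 0.35 and none counted. Without overlap 13 of the 17 were higher, as were 2701 (24.1%) of all 11215 genes considered. The opsin ninaE had 29774.5, 30874 and 25417 against 22712, 21598 and 23557. Of 27 gut enzymes none was counted either, with a median of 0.36. Within wild type the muscle, photoreceptor and gut medians were 0.36, 0.43 and 0.50, and within mutants 0.15, 0.19 and 0.31. The part of male RNA in these small differences was not tested.

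Some genes of the lists differed by genotype as well as between the 2 sets of libraries. Act88F, the flight muscle actin, had 11359 and 10345 in wild type replicates 1 and 2, 4959 in wild type replicate 3 and 1639.6, 1317 and 1223 in the mutants. Within each genotype the libraries with male transcripts were the higher ones, by 1.13 on the log2 scale in wild type and 0.37 in mutants, while the pooled difference of 1.53 came with overlapping libraries. Among 10 genes of the early embryo the median was 1.70, with none counted, and 0.49 within wild type and 0.00 within mutants. CG10035 had 323 and 266 in wild type replicates 1 and 2, 136 in wild type replicate 3, and 0.977, 0 and 1.02 in the mutants. In wild type it was thus higher in both libraries with male transcripts, by 1.11 on the log2 scale, and in the mutants it was near 0 throughout.

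Genes outside the lists made up most of the count, 1093 of the 1209. The 12 with the largest difference and a mean of at least 50 in the 3 libraries were CG17097, CG42782, CG31872, Spn77Bb, CG2127, Spn38F, CG4836, msopa, CG10252, CG33340, Spn28F and Anp. The gene CG42782 had 332, 1877 and 491 and was 0 in the other 3 libraries, at least 313-fold higher than the level that 3 reads allow. CG17097 and CG31872 lie close together on chromosome 2L, from 10646415 and from 10639931. Their values were 1252, 4408 and 1801 against 3.93, 0.879 and 2.03, and 764, 2405 and 1413 against 2.95, 0.879 and 1.02. CG4836, the most abundant of the 12, had 1607, 5394 and 1209 against 3.93, 5.28 and 5.08.

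Among the named genes of the 12, Anp encodes andropin, an antibacterial peptide of the ejaculatory duct, and had 266, 473 and 382 against 0, 0.879 and 0. The gene msopa had 395, 590.2 and 629 against 0, 1.76 and 0, and it was the only one of the 12 in which mutant replicate 1 was highest. The serpins Spn77Bb, Spn38F and Spn28F belong to the protease inhibitors. Of 21 serpins considered, a family followed after its values were seen, 6 were higher, beside 10.8% of all genes. Spn77Bb, Spn38F and Spn28F had under 10 normalised counts in each of the other 3 libraries, so they had to differ. Spn77Bb had 594, 1575 and 842 against 1.96, 0.879 and 0. No gene with a mean of at least 50 was lower. The 1 lower gene was lncRNA:CR44691, with 0, 3.19 and 9.77 against 10.8, 12.3 and 16.3.

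The excess in the 3 libraries was spread over many genes. Taking each higher gene's level minus its mean in the other 3 libraries, the excess summed to 89150.1, 291535 and 97183 normalised counts, or 0.399%, 1.30% and 0.434% of each library's total. The 10 genes with the largest mean excess held 15.9%, 16.8% and 21.7% of it and the first 100 held 48.3%, 48.6% and 57.6%. Genes with a level in the other 3 libraries are included. The immune peptide gene IM2, among the 10, held 0.685%, 0.398% and 2.59%, and IM1, among the 100, held 0.205%, 0.165% and 2.19%. The part of male RNA in the excess of IM1 and IM2 was not tested. Accessory gland genes carried 9.35%, 9.59% and 13.8% and duct and bulb genes 6.66%, 7.15% and 9.01%. Sperm leucyl aminopeptidases carried 4.78%, 5.31% and 3.71%. Genes in none of the lists carried 72.5%, 71.9% and 67.6%. Mutant replicate 1 thus had a larger portion from the accessory gland, duct and bulb and a smaller one from the aminopeptidases than either wild type library.

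A second measure took the genes with under 3 normalised counts in each of the 9 other libraries and at least 10 in each of the 3. There were 616 such genes, 459 of them known only by a CG number. They held 0.131% of the reads in wild type replicate 1 (95% Wilson interval 0.129 to 0.132), 0.445% in wild type replicate 2 (0.443 to 0.448) and 0.129% in mutant replicate 1 (0.128 to 0.131). The intervals cover counting error only. In the other 9 libraries, whose low values defined the genes, they held 0.000752% to 0.00158%. Wild type replicate 2 was the highest of the 3 libraries for 613 of the 616 genes.

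Ratios between the 3 libraries were taken over genes with at least 20 normalised counts in all 3 and under 10 in the other 3 young libraries. From wild type replicate 1 to 2, the median ratio was 2.95 for 32 accessory gland genes, 3.52 for 14 sperm genes and 3.75 for the 8 aminopeptidases. All of these genes were higher in replicate 2. From wild type replicate 1 to mutant replicate 1 the median lay above 1 for some lists and below 1 for others. The median ratio was 1.60 for the accessory gland genes, with 30 of 32 above 1, and ranged from 0.950 for Acp32CD to 5.20 for Acp54A1. It was 0.793 for the sperm genes, with 1 of 14 above 1, 0.884 for the aminopeptidases, with 1 of 8 above 1, and 0.820 for 6 testis mitochondrial genes, with 0 above 1. Other testis lists lay nearer to 1, with 0.968 for 5 spermatocyte genes and 1.11 for 3 testis proteasome genes, of which 2 were above 1. Over 370 genes restricted to the 3 libraries it was 0.899. With 1 mutant library on this side, there is no replicate for the mutant's ratio, and genes within a list are not independent samples.

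**Figure D4:**
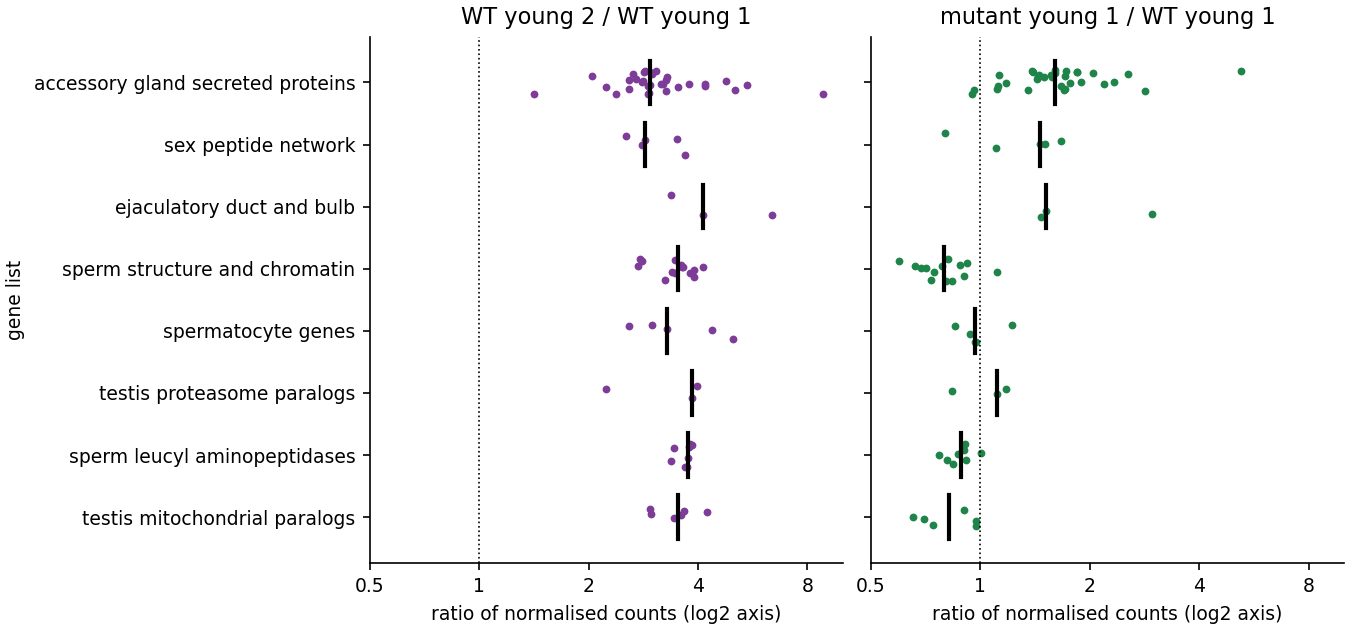
Ratio of normalised counts (log2 axis) in wild type young replicate 2 to replicate 1 (left) and in mutant young replicate 1 to wild type young replicate 1 (right), 1 point a gene, with a bar at the median of each list. On the right the accessory gland genes centre on 1.60 and the sperm genes on 0.793, while on the left every gene shown lies above 1.

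The contrast could be followed within each genotype, in libraries that the other genotype's contrast does not share. Within wild type, replicates 1 and 2 against 3, 1365 genes (12.2%) were higher, and within mutants, replicate 1 against 2 and 3, 1207 genes (10.8%) were higher. Of these 1126 were the same genes, 82.5% of the wild type list and 93.3% of the mutant list. Both contrasts split the libraries by the same sum, the mutant one has a single library on the high side, and most of the shared genes passed the filter only through the high libraries. Among the 10220 genes with at least 10 in 1 of the other 3 libraries, 379 were higher in wild type and 228 in mutants, and 151 of them were the same, 39.8% and 66.2% of the lists. Across the 11215 genes, which are not independent replicates, the correlation of both log2 differences was 0.958, across the 10220 it was 0.692, and no gene was counted as higher in 1 genotype and lower in the other. The median differences of the accessory gland list were 6.31 and 6.37, and those of the sperm list 6.37 and 5.14. Of the 1209 genes 99 did not reach the threshold in both genotypes.

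Immune genes differed in size between the contrasts of the genotypes. Of 13 antimicrobial peptide genes 4 were higher over both genotypes, beside 10.8% of all genes. Their list had a median log2 difference of 2.03, which was 0.40 within wild type and 3.02 within mutants. The 4 were AttA, AttB, CecA1 and CecA2, 2 pairs of close copies whose reads the counting could have split. Dro, which encodes drosocin, had 199, 98.9 and 172 in wild type replicates 1 to 3 and 640.0, 28.1 and 36.6 in mutant replicates 1 to 3. DptA, which encodes a diptericin, had 581, 459 and 484 in wild type and 450.5, 19.3 and 37.6 in mutants. For DptA, mutant replicate 1 lay near the wild type libraries, while the other 2 mutant libraries lay far below. The difference between the genotypes' contrasts was not tested, and the part of male RNA in it was not tested.

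**Figure D5:**
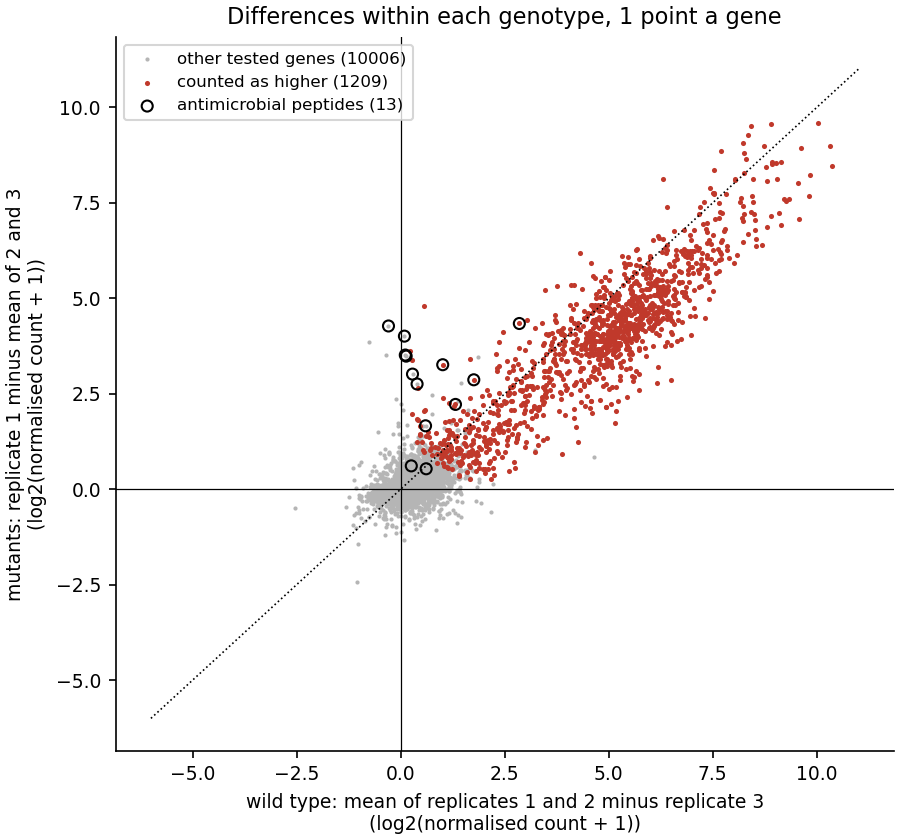
Log2 difference within wild type (replicates 1 and 2 minus 3, horizontal axis) and within mutants (replicate 1 minus 2 and 3, vertical axis) of 11215 genes, 1 point a gene, with the 1209 counted as higher in red, antimicrobial peptides circled and a dotted line of equal differences. Most red points lie along or below the dotted line, and a column of circled genes, among them Dro and DptA, lies near 0 for wild type, with Dro at 4.28 and DptA at 4.01 for mutants.

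Only 16 of the higher genes had at least 100 normalised counts in each of the other 3 libraries. They included Obp56g and the tubulin ligase gene TTLL4B, with 394, 853 and 348 against 210.2, 219.9 and 195. Gnmt, a glycine methyltransferase, had 750.5, 1342 and 709 against 232, 541 and 451. On the log2 scale TTLL4B differed by 1.46 within wild type and 0.745 within mutants, and Gnmt by 2.11 and 0.521. Neither TTLL4B nor Gnmt thus reached 2-fold within mutants, while Obp56g, with 2.63 and 2.67, did so in both genotypes. The immune peptide genes IM1 and IM2 were also among the 16. IM1 had 655, 952 and 2600.1 against 587, 367 and 464, with most of its difference in mutant replicate 1. The remaining 1193 higher genes had under 100 in at least 1 of the other 3 libraries.

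The share of higher genes is given by chromosome arm, beside 10.8% of all genes considered. As 987 of the 1209 passed the filter only through the 3 libraries, these shares are a description. Higher genes made up 13.6% of the 2085 genes considered on arm 2L and 10.6% of 2275 on 2R. On 3L the share was 10.8% of 2142 genes and on 3R 11.1% of 2774. On the X chromosome the share was 7.91% of 1796 genes, and on chromosome 4 it was 1.19% of 84. Of the 616 genes restricted to the 3 libraries, 168 lay on 2L and 125 on 2R. On 3L lay 113, on 3R 152 and on the X 55. Chromosome 4 and the Y held 1 each. By name, 849 of 4808 genes known only by a CG number were higher (17.7%), against 360 of 6407 genes with another symbol (5.62%). Of 270 noncoding RNA genes 35 were higher.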

How the data were processed

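Poly(A) RNA of whole females had been sequenced by the authors. Their processing notes name STAR 2.7.3a, HTSeq 0.11.2 and DESeq2 1.20.0 as tools and BDGP6 as the build. Every sample carries the same account of a pair of library preparations, and which library had which cannot be told. The deposited table holds a normalised signal, in which the count of each gene was divided by a size factor of its library. In each library 100% of values were whole multiples of 1 step within 0.01, and reads were recovered from these steps (0.798 to 1.32). The strand setting of the counting was not stated in them. Values of overlapping or antisense genes, and of near-identical copies, are therefore uncertain.

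The 3 young libraries over the minimum and the other 3 were compared over the 11215 of 17714 genes with at least 10 normalised counts in at least 3 of the 6, with a pseudocount of 1 and a 2-fold threshold. No test was run, since the same contrast chose the libraries. Of 338 list entries, in 21 lists, 333 were found. Named genes were the 3 markers, up to 6 members a list with the highest mean level, and the 12 genes outside the lists with the largest difference and a mean of at least 50. Genes and families named otherwise were chosen after their values were seen. The libraries, lists and members were chosen with earlier results of these data known. Gene positions were taken from a later Release 6 annotation (BDGP6). A fold against 0 used 3 reads per library, averaged over 3 libraries, as its floor. Python 3.11.15 and pandas 2.3.3 were used, and edgeR 4.0.16 for TMM factors. The procedure was checked on simulated counts. The design text calls the libraries biological replicates.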

Additional observations from a re-analysis of the deposited data

How the results depend on the processing

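None of 22 list medians and marker differences changed its sign under the alternatives run. The number of higher genes stayed within 1.5 times of 1209 under other pseudocounts, scalings and fold thresholds and with each library left out. It was 2178 with no filter on low values and 222 among genes with at least 10 normalised counts in 1 of the other 3 libraries, an alternative chosen after seeing the data. The number higher within both genotypes, 1126, became 1935 and 151 under the same 2 alternatives. The number of lower genes rested on few genes, and was 1 in the report. It was 2 with a pseudocount of 0.5, 0 with a pseudocount of 10, 0 with a mean of at least 10, 0 at a 4-fold threshold, 19 at a 1.5-fold threshold, 27 with no filter, 16 in wild type alone and 9 in mutants alone. Leaving out 1 library gave 2 to 16 lower genes, with 13 without wild type young replicate 3 and 16 without Ptth mutant young replicate 1.

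The median log2 difference of the accessory gland list was 7.18 with a pseudocount of 0.5 and 3.69 with 10. That of the sperm list was 3.07 with a pseudocount of 10 and 5.14 in mutants alone. Genes with under 10 normalised counts in each of the 9 other libraries numbered 895 and held 0.252% of the reads in wild type replicate 1, 0.859% in wild type replicate 2 and 0.255% in mutant replicate 1. Of 264 alternative values for list medians and markers, 242 moved by less than the spread between libraries. No paired analysis was possible because the results come from no test, and differences within each genotype stand in the report for some genes and lists. Each side holds 3 libraries, and depth limits genes with few reads, such as those of the Y chromosome.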

Other observations

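Further genes outside the lists were chosen after their values were seen and are given without a test, in the order used in the report. As a class, 35 of 270 noncoding RNA genes were higher, a share near the 10.8% of all genes, and 4 of 77 cytochromes P450, fewer than that share would give. lncRNA:CR9284 on chromosome 2R, 21803402 to 21804338, had 185, 723 and 156 normalised counts against 0, 0 and 1.02. lncRNA:CR32652 on the X chromosome, 12411018 to 12412181, had 157, 498 and 76.2 against 0.982, 0 and 0. Both were at most 3.23 in the old libraries. For lncRNA:CR44389, mutant replicate 1 lay above wild type replicate 1, with 113, 307 and 192 against 0, 0 and 1.02.

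Of 9 C-type lectin genes considered 4 were higher, beside 10.8% of all genes. They included lectin-29Ca, with 68.3, 166 and 103 against 0, 0.879 and 0, and lectin-30A, with 97.6, 282 and 166 against 0.982, 0 and 0. As lectin-29Ca and lectin-30A had under 10 normalised counts in each of the other 3 libraries, they had to differ. Another member of that family, lectin-37Da, had 3494, 4075 and 2929 in wild type replicates 1 to 3 and 513, 317 and 385 in mutant replicates 1 to 3. Of 8 dynein chain genes considered 4 were higher, beside 10.8% of all genes. Dnah3 had 79.3, 282 and 60.6 against 2.95, 7.04 and 0, and Dhc62B, which has a level without male transcripts, had 51.3, 97.3 and 46.9 against 34.4, 21.99 and 23.4. The cytochrome P450 gene Cyp312a1 had 205, 650.0 and 217 against 45.2, 32.5 and 47.8, and in old libraries it lay between 68.8 and 92.1.

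At a 1.5-fold threshold 19 genes were lower in the 3 libraries. They included krimp, a component of the germline piRNA pathway, with 1549.8, 1121 and 2144 against 2169, 2626 and 2524, and Orc1, a subunit of the origin recognition complex, with 2957, 2268 and 4175 against 4468, 5208 and 4518. In both genes mutant replicate 1 lay close below wild type replicate 3, so the gap between the sets of libraries was small.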
